A study of Mus musculus with 145 samples.

Results

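This report describes 1 direct comparison in mouse dorsal skin: 5 animals exposed once to 40 mJ/cm2 of ultraviolet light (UV) against 4 animals exposed once to 20 mJ/cm2, all sampled 48 h later. The members were chosen by their labelled dose and time alone, and they are 9 of the 145 libraries of the series. The light came from a sunbed canopy of 8 lamps (100 W each) that gave 96.4% UVA and 3.6% UVB, and sham animals served as controls. The whole study covers sham and doses of 5 to 40 mJ/cm2, sampled between 0 and 96 h. At 48 h the sham, 5 and 10 mJ/cm2 groups held 5 animals each, so 24 libraries entered the fit. Each library title carries its own number, taken here as that of the animal. No source used here gives the strain, sex or age of the animals. All groups share the tissue and the library kit.

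The UVB part of sunlight and sunbed light is absorbed by DNA and other molecules of keratinocytes, the main cells of the epidermis. Damaged keratinocytes and other skin cells release cytokines and chemokines, which draw neutrophils and then monocytes out of the blood, and this is the cellular side of sunburn. Surviving keratinocytes switch from the keratins and envelope proteins of normal cornification to a repair state marked by keratins 6 and 16 and by small proline-rich proteins. The dermis below responds with wound matrix proteins and matrix-cutting enzymes.

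Markers of skin were present throughout: the suprabasal keratin gene Krt10 and the basal keratin gene Krt15 were read in all 9 libraries at 836 to 5580 and 380 to 1700 CPM (counts per 1e+06 counts on scaled library sizes), and the dermal matrix gene Sparc at 4590 to 23000 CPM. Total counts were 11.9 to 35.4 M per library at 20 mJ/cm2 and 5.83 to 13.3 M at 40 mJ/cm2 (M, 1e+06 counts), and the means of 21.7 ± 11.4 and 10.5 ± 3.07 M (SD, n = 4 and 5) differed with p = 0.0476 in a two-sided exact permutation test. The mitochondrial share of counts was 2.74 ± 1.07% and 2.78 ± 0.693% (SD). The share of counts in the 50 most abundant genes was 21 ± 3.06% at 20 mJ/cm2 and 17.2 ± 1.42% at 40 mJ/cm2 (two-sided exact permutation p = 0.0397), and its part in the results was not tested. Library titles end in R1_001 (20 mJ/cm2 replicate 1 and 40 mJ/cm2 replicates 1 and 2) or in R1 (the other 6), and 20 mJ/cm2 replicate 2 is titled as a repeat with a lower RNA amount. The ending was a term of the fit, and no source used here says what it stands for. In bulk skin, more cells of a type and more RNA per cell cannot be told apart.

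The step from 20 to 40 mJ/cm2 was large at 48 h. edgeR called 1459 of 18673 genes, which is 7.81% (a gene is called at an adjusted p under 0.05), with 666 higher at 40 mJ/cm2 (3.57% of all genes tested) and 793 lower (4.25%). Of these, 424 rose and 481 fell at least 2-fold. Set side by side, 40 mJ/cm2 against sham gave 1443 calls (7.73%) and 20 mJ/cm2 against sham gave 90 (0.482%), of which 80 were higher and 10 lower. Those comparisons share animals with the one described here. At 5 and 10 mJ/cm2 edgeR called 0 genes against sham, with 638 and 472 at an unadjusted p under 0.05.

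**Figure D1:**
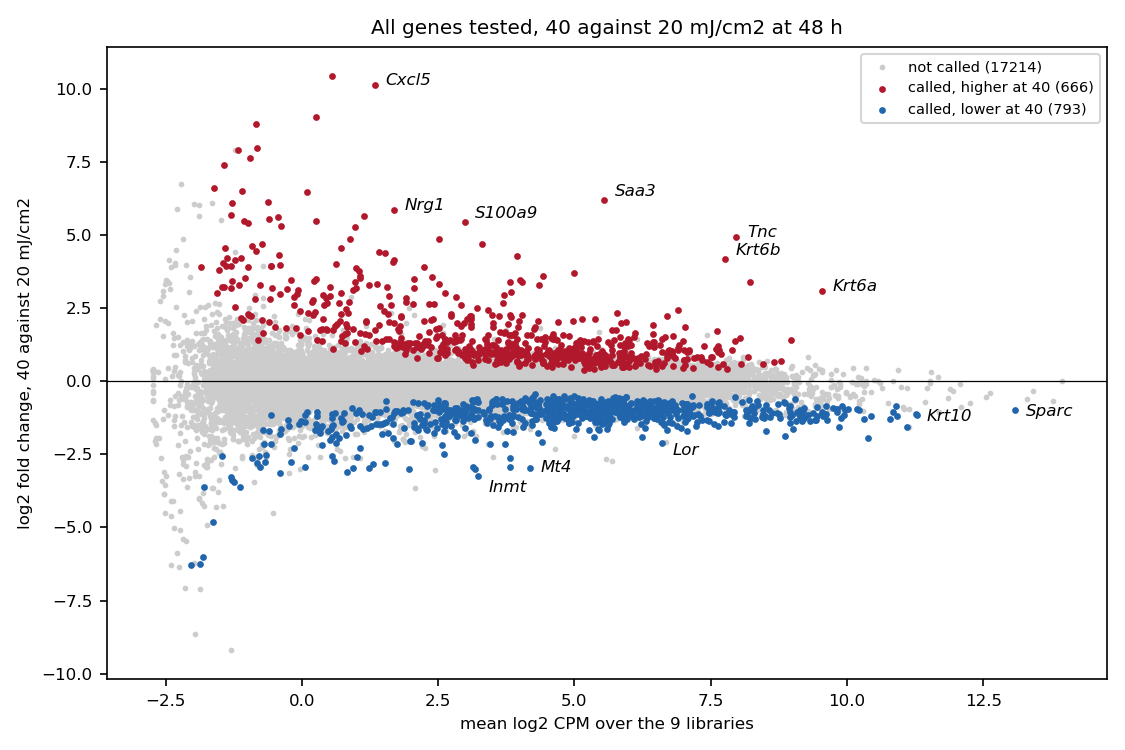
All 18673 genes tested, with the mean log2 CPM of the 9 libraries on the x axis and the log2 fold change of 40 against 20 mJ/cm2 at 48 h on the y axis. The 666 genes called higher (red) and the 793 called lower (blue) lie on either side of 0, and Cxcl5, at 10.15, is among the highest.

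The rises were steadier between animals than the falls. Of the 666 genes called higher, 259 (38.9%) were called in all 9 fits that left out 1 library, and of the 793 called lower, 46 (5.8%). All libraries at 40 mJ/cm2 lay above all libraries at 20 mJ/cm2 in 482 of the 666, against 941 of all genes tested (5.04%), and below them in 330 of the 793, against 761 of all genes (4.08%). These counts come from the same 9 libraries as the calls, so they describe the calls and are no support for them. Single libraries set the number of calls. Dropping replicate 2 or 4 at 20 mJ/cm2 left 466 or 419 calls, dropping replicate 1 or 3 raised it to 2212 or 2314, and dropping 1 of replicates 2 to 5 at 40 mJ/cm2 left 746, 539, 588 or 654. Replicates 2 and 4 at 20 mJ/cm2 stood above the other 2 in genes of the cornified layer, and without both the count was 218, with 208 higher and 10 lower. This pair was picked for standing high in genes that fall, after their values were seen. Among R1 libraries alone (3 against 3) edgeR called 364 genes higher and 115 lower.

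Of 24 neutrophil markers 17 passed the filter on low counts, and 12 of these were called higher and 1 lower. Their median log2 difference was 3.45, against -0.03 over all genes tested. Markers near 0 in most libraries could pass the filter through the groups where they are high, so this count and median describe the 17 and not the whole list. Cxcr2, the receptor that guides neutrophils along CXC chemokines, read 0.0804, 0.312, 0.231 and 0.361 CPM at 20 mJ/cm2 (replicates 1 to 4) and 2.58, 2.48, 20.4, 21.5 and 18 CPM at 40 mJ/cm2 (replicates 1 to 5). The groups did not overlap, and 40 mJ/cm2 replicates 1 and 2 were the low animals of their group. The log2 fold change was 5.65 ± 0.73 (SE), with an edgeR adjusted p of 6e-05.

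S100a9 and S100a8 encode the subunits of calprotectin, an abundant protein of neutrophils that stressed keratinocytes also make. S100a9 read 0.563, 2.08, 0.512 and 2.16 CPM at 20 mJ/cm2 and 10, 6.42, 103, 84.4 and 89.7 CPM at 40 mJ/cm2. S100a8 read 0.717 to 1.87 CPM and 3.81 to 56.6 CPM. Both rose without overlap, by 5.44 ± 0.98 and 4.88 ± 0.94 on the log2 scale (edgeR adjusted p = 0.0018 and 0.0032). Csf3r, the receptor of granulocyte colony-stimulating factor, read 5.95, 5.1, 4.18 and 3.81 CPM and then 16, 13, 103, 72.7 and 78 CPM, a log2 difference of 3.45 ± 0.47 (edgeR adjusted p = 0.000103). The lectin receptors Clec4d and Clec4e rose by 4.43 ± 0.76 and 4.87 ± 0.74. Fpr1, a receptor for bacterial formyl peptides, had 2 counts over the 4 libraries at 20 mJ/cm2 and 124 at 40 mJ/cm2, a ratio of 91.9 after scaling (95% counting interval 24.9 to 767, edgeR adjusted p = 0.00014).

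Set against sham, neutrophil markers stood at a median log2 difference of 4.08 at 40 mJ/cm2 and 0.13 at 20 mJ/cm2. The mean log2 CPM of the 17 markers was -0.05, 0.52, -0.22 and 0.54 in the 20 mJ/cm2 libraries and 1.53, 1, 3.5, 3.47 and 3.19 in the 40 mJ/cm2 libraries, with sham at -0.81 to 0.7. The 20 mJ/cm2 animals thus lay within the sham range, and 40 mJ/cm2 replicates 1 and 2, the R1_001 libraries, lay below replicates 3 to 5. Among R1 libraries alone 11 of the 17 were called higher. Without 20 mJ/cm2 replicates 2 and 4 there were 7, with a median of 3.48, and without replicates 3 and 4 also 7, with a median of 3.59. The 1 marker called lower was Il1r2, the interleukin-1 decoy receptor that keratinocytes also express (-1.41 ± 0.37), named after its values were seen. It read 497 CPM in 20 mJ/cm2 replicate 2 and 51.7 to 181 CPM in the other 8 libraries, and its call was lost in 5 of the 9 fits without 1 library. The granule genes Ngp, Ltf, Elane and Mpo and the surface marker Ly6g did not pass the filter.

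Of 8 measured chemokine and colony factor genes that attract and mobilize neutrophils, 6 were called higher and 0 lower. The median log2 difference was 3.54. Genes near 0 in most libraries could pass the filter through the groups where they are high, so these values describe the 8. Calls numbered 2 without 20 mJ/cm2 replicates 2 and 4, and also 2 without replicates 3 and 4. Cxcl5, a neutrophil chemokine made by epithelial cells, read 0.0804, 0, 0 and 0.0801 CPM at 20 mJ/cm2 and 5.97, 2.07, 106, 51.9 and 48 CPM at 40 mJ/cm2, and 0 CPM in all 5 sham libraries. Its 3 counts at 20 mJ/cm2 stood against 2569 at 40 mJ/cm2, a scaled ratio of 1270 (95% counting interval 434 to 6160, edgeR adjusted p = 3.19e-05). Cxcl1, the main keratinocyte ligand of Cxcr2, read 3.86, 1.77, 0.666 and 0.441 CPM and then 23.1, 5.29, 31.3, 9.58 and 20.5 CPM. It rose by 3.58 ± 0.70, and its lowest animal at 40 mJ/cm2 was above its highest at 20 mJ/cm2. Cxcl3 had 1 count at 20 mJ/cm2 and 93 at 40 mJ/cm2, and Ppbp, a platelet chemokine, rose by 3.50 ± 0.63. Of 20 CC chemokines, which attract mononuclear cells, 2 were called higher and 3 lower, with 0 higher without 20 mJ/cm2 replicate 4 and 6 lower without replicate 1. The monocyte chemokine Ccl2 rose from 8.12 ± 3.55 to 28.8 ± 9.88 CPM (SD), and Ccl27a, a keratinocyte chemokine for skin T cells, fell from 33.3 ± 16.5 to 12.8 ± 3.6 CPM with overlap between the groups (leaving out 1 library at a time ended these calls 1 and 5 times).

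**Figure D2:**
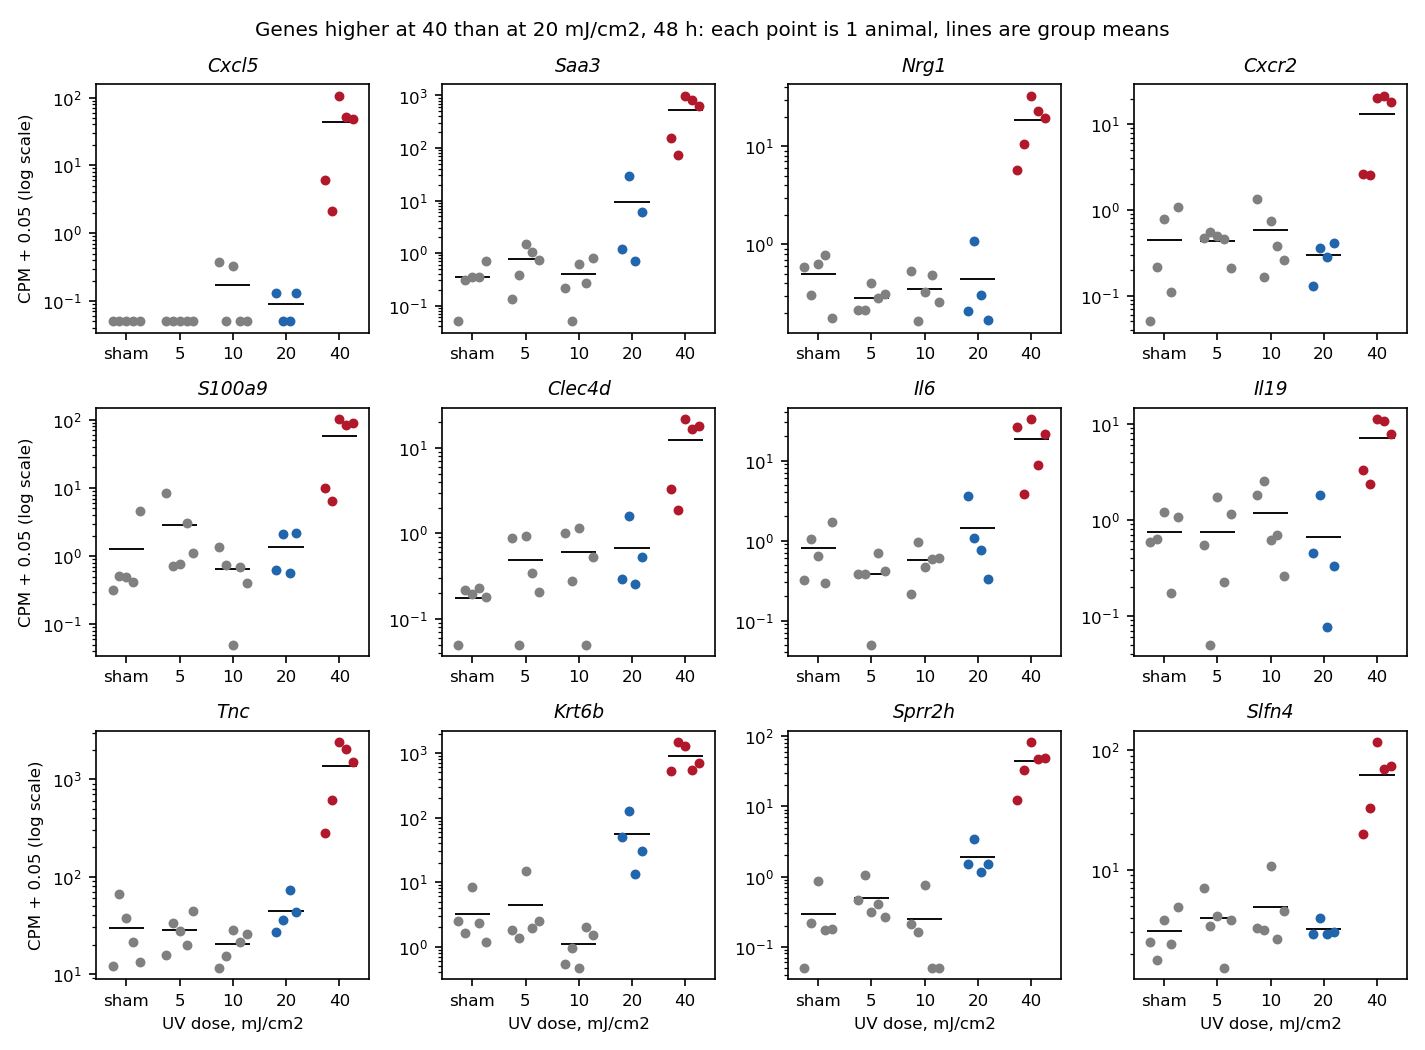
CPM of 12 genes in the 24 animals of 48 h by dose, on a log scale after adding 0.05, with lines at group means. In each panel the lowest animal at 40 mJ/cm2 (red) is above the highest at 20 mJ/cm2 (blue), and Cxcr2, S100a9 and Slfn4 at 20 mJ/cm2 overlap the sham animals while Krt6b at 20 mJ/cm2 does not.

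A list of cytokine and receptor genes, named for the families of interleukins 1, 6, 17 and 20, split into a set that rose and a larger set that did not pass. Of 34 measured genes 15 were called higher and 0 lower, and the list's median was 0.38. Il6, the inducer of the acute phase response, read 3.54, 1.04, 0.717 and 0.28 CPM at 20 mJ/cm2 and 26.5, 3.81, 33, 8.82 and 21.6 CPM at 40 mJ/cm2. The groups came close, with 20 mJ/cm2 replicate 1 just below 40 mJ/cm2 replicate 2, and the log2 difference was 3.90 ± 0.70 (edgeR adjusted p = 0.00155). Il1rl1, the receptor of interleukin-33, rose by 3.05 ± 0.31 (edgeR adjusted p = 4.39e-06), from 5.95, 6.03, 4 and 2.6 CPM to 17.8, 24.8, 52.7, 49.1 and 48.9 CPM. Its ligand Il33, an alarm signal held in the nuclei of barrier cells, rose from 23.7 ± 7.22 to 118 ± 47 CPM (SD). Il4ra, a receptor subunit for interleukins 4 and 13, rose from 46.1 ± 5.77 to 219 ± 98.3 CPM (SD). Il4ra is a member of the list but lies outside the families it is named for. At 20 mJ/cm2 these 3 genes lay at -0.74, -0.47 and -0.08 log2 from sham, and none was called.

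Of the interleukin-20 family, Il24 had 1 count over the 4 libraries at 20 mJ/cm2, 0 in sham and 526 at 40 mJ/cm2, a scaled ratio of 780 (95% counting interval 139 to 30900, edgeR adjusted p = 4.22e-05). Its neighbour in family and genome Il19 rose by 3.76 ± 0.89, from 0.402, 1.77, 0.0256 and 0.28 CPM to 3.23, 2.34, 11.2, 10.7 and 7.88 CPM. The Il19 call was lost in 1 of the 9 fits without 1 library.

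Saa3, a serum amyloid that tissues make in the acute phase, was higher in every animal at 40 mJ/cm2 than in any at 20 mJ/cm2. It read 1.13, 28.8, 0.64 and 6.05 CPM at 20 mJ/cm2 and 158, 74.6, 987, 815 and 626 CPM at 40 mJ/cm2, against 0.297 ± 0.228 CPM in sham (SD, n = 5). The log2 difference was 6.21 ± 0.69 (edgeR adjusted p = 1.46e-05), and 20 mJ/cm2 replicate 2 was the high animal of its group. Saa3 was also called at 20 mJ/cm2 against sham, by 4.33. Of 20 acute phase and complement genes 8 were called higher and 0 lower. Lcn2, which binds bacterial iron carriers, rose from 4.6 ± 3.22 to 48.1 ± 33.2 CPM (SD), and Ptx3, a pattern-recognizing pentraxin, from 4.7 ± 0.755 to 26.5 ± 19.7 CPM, with 40 mJ/cm2 replicate 2 at 5.02 CPM inside the 20 mJ/cm2 range. Saa2, a close relative, rose by 6.46 ± 0.74. Of 25 antimicrobial and innate defence genes 9 were called higher (5 without 20 mJ/cm2 replicate 4, 5 without 40 mJ/cm2 replicate 3) and 1, the defensin gene Defb6, lower. Chil3, a chitinase-like protein of myeloid cells, rose by 3.29 ± 0.57, the inflammasome sensor Nlrp3 by 2.41 ± 0.42 and the oxidase subunit Ncf1 by 1.06 ± 0.22.

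Promoters of Il6, Saa3 and Sprr2h are printed because each of these genes rose and each window holds a motif of a factor family known from inflamed epithelium. Sequences are from RefSeq on build GRCm38.p6, 250 bases before to 50 bases after the start, 5′ to 3′ on the gene's strand, with motif matches in capitals. The windows are chr5:30012864-30013163 (plus strand), chr7:46715627-46715926 (minus strand) and chr3:92385435-92385734 (plus strand).
Il6: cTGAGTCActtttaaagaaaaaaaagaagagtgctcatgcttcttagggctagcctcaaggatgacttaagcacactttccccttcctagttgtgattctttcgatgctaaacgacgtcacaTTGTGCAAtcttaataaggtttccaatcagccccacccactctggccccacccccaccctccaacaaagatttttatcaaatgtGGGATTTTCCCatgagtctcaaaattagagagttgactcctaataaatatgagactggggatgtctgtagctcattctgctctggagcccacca
Saa3: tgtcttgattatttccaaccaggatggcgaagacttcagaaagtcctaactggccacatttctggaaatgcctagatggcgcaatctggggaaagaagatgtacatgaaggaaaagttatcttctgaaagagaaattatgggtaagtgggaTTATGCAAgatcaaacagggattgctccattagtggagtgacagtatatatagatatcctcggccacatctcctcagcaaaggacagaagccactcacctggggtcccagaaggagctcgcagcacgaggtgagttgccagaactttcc
Sprr2h: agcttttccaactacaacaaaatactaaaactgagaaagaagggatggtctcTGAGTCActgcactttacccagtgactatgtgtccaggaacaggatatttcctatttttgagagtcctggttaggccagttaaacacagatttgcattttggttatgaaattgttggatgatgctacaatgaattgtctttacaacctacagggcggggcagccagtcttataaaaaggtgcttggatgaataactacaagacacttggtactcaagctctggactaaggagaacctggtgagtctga
Both strands were searched for TGANTCA (AP-1), GGGA and CC with 4 bases of any kind between them (NF-kB) and TTGCNNAA (CCAAT/enhancer binding protein). The Il6 window holds an AP-1 match at -249 to -243, a CCAAT/enhancer match at -128 to -121 and NF-kB matches on both strands that overlap each other between -44 and -34. The Saa3 window holds a CCAAT/enhancer match at -99 to -92, and the Sprr2h window an AP-1 match at -198 to -192. No matches of different motifs overlap in these windows. Of all 32851 promoter windows in the table, 7.81% hold the AP-1 motif, 20.7% the NF-kB motif and 10.8% the CCAAT/enhancer motif. Of the 15 genes with the largest rise, 11 have a window, and 3 of these hold AP-1, 2 NF-kB and 3 the CCAAT/enhancer motif. Of the 15 with the largest fall, 13 have a window, and 0, 2 and 0 hold them. A match is a stretch of letters and no measure of binding.

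Of 25 monocyte and macrophage markers 7 were called higher, 0 lower and 18 did not pass, with a median log2 difference of 0.48. Calls numbered 4 without 20 mJ/cm2 replicate 4 and 10 without replicates 2 and 4, where the median was 1.08. The median was 0.78 without replicate 2 and 0.24 without replicate 3. Ccr2, the receptor by which monocytes leave the blood, read 36.3, 39.9, 39.6 and 32.3 CPM at 20 mJ/cm2 and 90.9, 111, 141, 126 and 105 CPM at 40 mJ/cm2, groups far apart (1.65 ± 0.27, edgeR adjusted p = 0.000776). Itgam, an integrin of myeloid cells, rose from 31.8 ± 5.92 to 84 ± 29.1 CPM (SD), and the scavenger receptor Msr1 from 7.22 ± 3.32 to 22.7 ± 6.09 CPM. Ccr2 at 20 mJ/cm2 stood near its sham level of 48.7 ± 11.1 CPM.

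Lymphoid and dendritic genes showed few calls, beside 3.57% called higher and 4.25% called lower among all genes tested. Of 21 T cell markers 1 was called higher (Cd4, 0.80 ± 0.23) and 1 lower (Cd3g, -0.99 ± 0.25), and of 16 Langerhans and dendritic cell markers 2 higher and 1 lower. Leaving out 1 library ended the Cd4 call 5 times of 9 and the Cd3g call 4 times. Flt3, a receptor of dendritic cell precursors, rose from 3.98 ± 0.562 to 8.52 ± 0.996 CPM (SD) with no overlap. Cd207, the langerin gene that defines Langerhans cells, read 6.03, 13.6, 5.79 and 12.6 CPM and then 6.62, 3.14, 1.28, 4.1 and 2.6 CPM, and its call was lost in 4 of the 9 fits without 1 library. Hdc, which makes histamine, was the 1 of 10 mast cell markers called (2.62 ± 0.43), and myeloid cells express it too.

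Of 25 interferon stimulated genes 7 were called higher and 1 lower, with a median of 0.49, and 4 were called higher without 20 mJ/cm2 replicate 1 or 4 or any of 40 mJ/cm2 replicates 2 to 5. The higher calls numbered 2 among R1 libraries alone, with a median of 0.41. Oas3, a sensor of double-stranded RNA, read 0.965, 2.29, 1.72 and 1 CPM at 20 mJ/cm2 and 5.49, 7.69, 7, 6.66 and 6.21 CPM at 40 mJ/cm2. Mx1, an antiviral GTPase, read 1.04, 4.47, 2.33 and 3.61 CPM and then 7.91, 9.37, 7.69, 7.78 and 8.53 CPM. In Oas3 and Mx1, unlike Cxcr2 or S100a9, 40 mJ/cm2 replicates 1 and 2 stood with replicates 3 to 5. Their log2 differences were 2.18 ± 0.36 and 1.68 ± 0.36 (edgeR adjusted p = 0.000779 and 0.00775), and 20 mJ/cm2 lay 0.01 from sham for both.

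Of 37 keratin and envelope genes of stressed epidermis 15 were called higher, 0 lower and 22 did not pass. The median log2 difference was 1.74 (1.69 with the genes at 0 counts set to their bound). The 37 include genes near 0 at 20 mJ/cm2, which could pass the filter through the groups where they are high. The list's median against sham was 2.32 at 20 mJ/cm2 and 4.88 at 40 mJ/cm2, with 7 and 26 members called higher. Krt6a, a keratin of wounded epidermis, read 231, 369, 166 and 195 CPM at 20 mJ/cm2 and 1010, 1990, 3360, 1870 and 2030 CPM at 40 mJ/cm2, against 94.1 ± 20.2 CPM in sham (SD). It rose by 3.10 ± 0.30 (edgeR adjusted p = 2.47e-06). Krt6b read 50.5, 127, 13.3 and 30.4 CPM and then 528, 1470, 1290, 548 and 713 CPM, a log2 difference of 4.19 ± 0.73.

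Small proline-rich genes encode cross-linked envelope precursors, and some of them were called higher while Sprr1a (1.69, edgeR adjusted p = 0.0529) and Sprr4 (0.18, adjusted p = 0.926) were not. Sprr3 had 0 counts at 20 mJ/cm2 and 2 at 40 mJ/cm2. Those 3 are named after their values were seen. Sprr2h, whose promoter is printed above, read 1.45, 3.33, 1.13 and 1.48 CPM and then 12.4, 33.5, 82.2, 47.6 and 48.9 CPM (4.69 ± 0.56, edgeR adjusted p = 2.71e-05). Sprr2d and Sprr1b rose by 5.28 ± 0.60 and 3.59 ± 0.54. Sprr2, Stfa, Lce1 and Krt6 genes have close relatives whose reads expected counts divide by estimate, so single members are uncertain. Among R1 libraries alone 10 of the 37 were called higher, and in the fits without 1 library 10 (without 40 mJ/cm2 replicate 3) to 15.

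Of 38 cornified and suprabasal genes 0 were called higher, 16 lower and 22 did not pass, with a median of -1.48. Against sham the median was 1.12 at 20 mJ/cm2 and -0.08 at 40 mJ/cm2, and 0 of the 38 were called lower at 40 mJ/cm2. Late envelope genes of the Lce1 cluster led the falls. Lce1a2 read 15.6, 51.4, 5.76 and 73.7 CPM at 20 mJ/cm2 and 9.04, 3.75, 1.2, 6.18 and 3.71 CPM at 40 mJ/cm2, against 11 ± 4.95 CPM in sham (SD). Replicates 2 and 4 were the high animals, and replicate 3 lay inside the 40 mJ/cm2 range. The log2 difference was -3 ± 0.78 (edgeR adjusted p = 0.023), and the call was lost in 6 of the 9 fits without 1 library. Calm4, a calmodulin-like protein of suprabasal cells, read 422, 1730, 336 and 1830 CPM and then 343, 293, 288, 241 and 341 CPM. Krt10 read 3610, 4390, 2130 and 5580 CPM and then 2670, 2160, 836, 2020 and 1790 CPM (-1.13 ± 0.29), and its call was lost in 3 of the 9 fits.

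The mean log2 CPM of the 38 cornified genes was 4.9, 5.8, 4.12 and 6.33 in 20 mJ/cm2 replicates 1 to 4, 3.44 to 4.81 at 40 mJ/cm2 and 3.84 to 4.68 in sham. Lower calls numbered 0 without 20 mJ/cm2 replicate 2 or replicate 4, and 5, 1, 5 and 4 without 40 mJ/cm2 replicates 2 to 5. Without 20 mJ/cm2 replicates 2 and 4 together, 0 of the 38 were called in either direction and the median was -0.36. That pair was picked after the levels were seen, as the highest of its group in this list. A smaller fall was therefore bound to follow, and only replicates 1 and 3 remained at that dose. Of the 15 genes with the largest fall, 8 belong to the Lce family, 14 had replicates 2 and 4 above replicates 1 and 3 at 20 mJ/cm2, and 2 were called without those replicates. Of the 15 with the largest rise, 13 were, but the pair was picked on genes that fall, so these counts do not compare like with like.

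**Figure D3:**
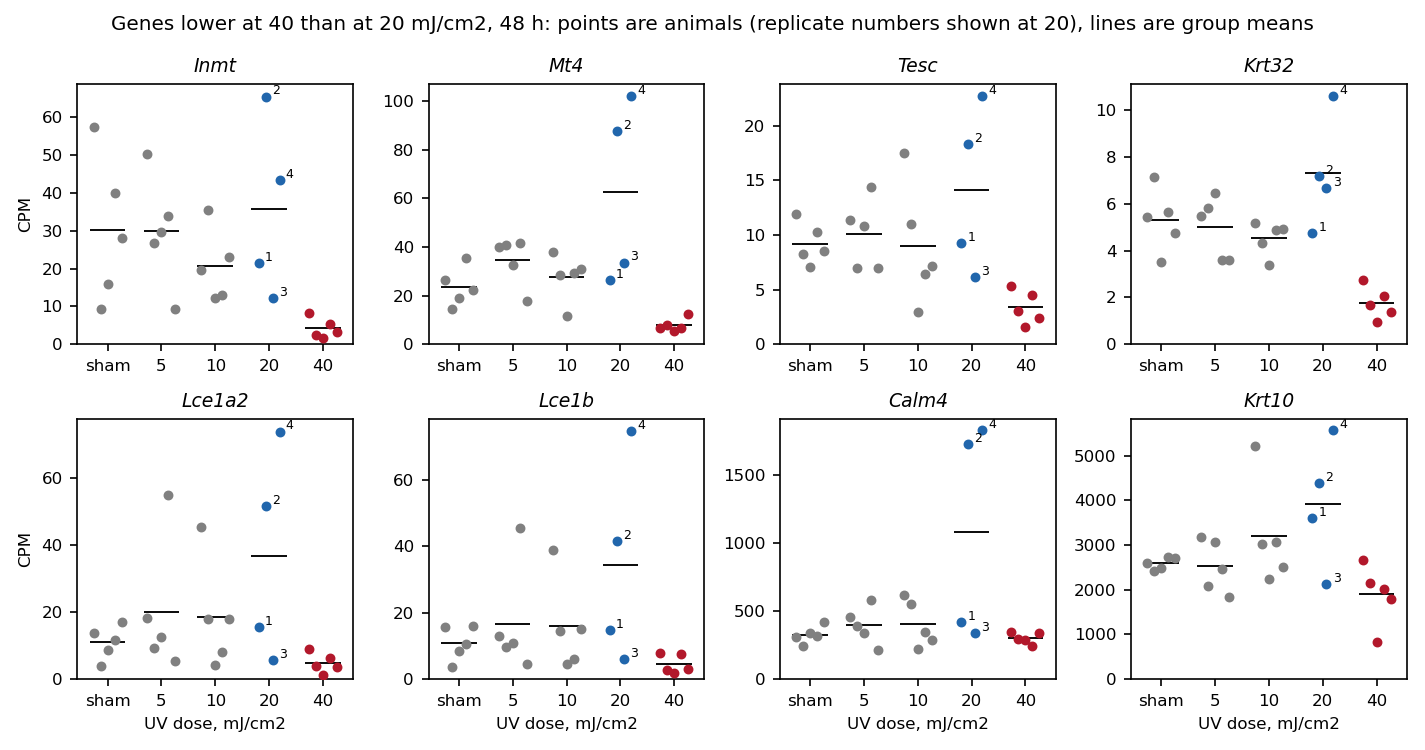
CPM of 8 genes called lower at 40 than at 20 mJ/cm2 in the 24 animals of 48 h, with replicate numbers at 20 mJ/cm2 and lines at group means. Replicates 2 and 4 stand high in Lce1a2, Lce1b and Calm4, and are also the highest at 20 mJ/cm2 in Inmt, Mt4, Tesc and Krt32. Inmt, Mt4, Tesc and Krt32 have all 4 animals at 20 mJ/cm2 above all 5 at 40 mJ/cm2.

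Of the 15 named falls 5 separated the groups and were called in all 9 fits without 1 library. In each of the 5, replicates 2 and 4 were the highest animals of the lower dose group. Without those replicates, picked for standing high in cornified genes, 2 of the 15 falls were called. With the level of cornified genes as a covariate all 15 kept their sign and 2 were called. That level is a mean that includes the Lce1 genes among the 15, so for them it cannot decide anything. It ran from 4.12 to 6.33 at 20 mJ/cm2 and from 3.44 to 4.81 at 40 mJ/cm2. Adjusting for it can therefore also remove part of the dose difference. Most of the 5 thus lost their call in each of these checks. Mt4, a metallothionein of differentiating squamous epithelium, read 26.4, 87.7, 33.6 and 102 CPM and then 6.78, 8.03, 5.55, 6.53 and 12.4 CPM, also below the sham mean of 23.6 ± 8 CPM (SD). Its log2 difference was -2.97 ± 0.40 (edgeR adjusted p = 0.000103), and with the level of cornified genes as a covariate it was -1.97, still called. Inmt, a methyltransferase gene, read 21.5, 65.5, 12.3 and 43.4 CPM and then 8.39, 2.54, 1.62, 5.35 and 3.34 CPM (-3.22 ± 0.57, edgeR adjusted p = 0.00154). Krt32, a hair cuticle keratin, fell from 7.3 ± 2.45 to 1.77 ± 0.687 CPM (SD), Tesc, a calcium-binding protein gene, from 14.1 ± 7.7 to 3.38 ± 1.52 CPM, and Calm5, a relative of Calm4, from 33.3 ± 24 to 7.57 ± 2.11 CPM.

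Of 12 ligand and receptor genes of the epidermal growth factor receptor family 5 were called higher, 0 lower and 7 did not pass. The count was 5 in each of the 9 fits without 1 library and 3 without 20 mJ/cm2 replicates 2 and 4. Nrg1, a ligand of the related receptors ErbB3 and ErbB4, had the smallest p of all genes tested. It read 0.161, 1.04, 0.256 and 0.12 CPM at 20 mJ/cm2 and 5.65, 10.6, 32.7, 23.1 and 19.4 CPM at 40 mJ/cm2, with sham at 0.447 ± 0.249 CPM (SD). The log2 difference was 5.86 ± 0.50 (edgeR adjusted p = 7.5e-07), 6.05 among R1 libraries and 5.57 among R1_001 libraries. Epgn (epigen) rose from 6.88 ± 4.76 to 64.8 ± 39.9 CPM (SD), Tgfa from 7.36 ± 2.67 to 35.1 ± 14.9 CPM and Areg (amphiregulin) from 1.97 ± 1.03 to 12.4 ± 7.81 CPM. At 20 mJ/cm2 the 4 genes differed from sham by -0.59 to 0.56 log2 and none was called.

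Of 28 wound matrix genes 12 were called higher, 0 lower and 16 did not pass (median 0.99). Without 20 mJ/cm2 replicates 2 and 4 there were 5 calls and the median was 0.60. Tnc encodes tenascin C, a glycoprotein of wound beds, and read 27.1, 35.7, 72 and 43.5 CPM at 20 mJ/cm2 and 282, 613, 2400, 2030 and 1520 CPM at 40 mJ/cm2, against 29.9 ± 22.5 CPM in sham (SD). The groups stood far apart, with a log2 difference of 4.92 ± 0.59 (edgeR adjusted p = 2.75e-05). Prg4, the lubricant lubricin, rose by 3.71 ± 0.46, Tnfaip6, a hyaluronan-binding protein induced by tumour necrosis factor, by 2.13 ± 0.31, and Cemip, which breaks hyaluronan down, by 3.14 ± 0.47.

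Of 24 metalloproteinase and inhibitor genes 10 were called higher and 0 lower (median 0.86), with 4 higher without 20 mJ/cm2 replicate 4 and 5 without 40 mJ/cm2 replicate 3. Mmp19 read 29.3, 28.8, 23 and 27.4 CPM at 20 mJ/cm2 and 54.4, 57.6, 123, 123 and 97.3 CPM at 40 mJ/cm2, with no overlap (1.74 ± 0.21, edgeR adjusted p = 2.59e-05). Mmp8, the neutrophil collagenase, rose by 3.22 ± 0.63, and the aggrecan-cutting Adamts4 by 1.84 ± 0.43. Of 25 fibroblast and collagen genes 1 was called higher, the receptor gene Pdgfra (1.08 ± 0.22), and 2 lower, Sparc (-0.98 ± 0.26) and Cd34 (-0.61 ± 0.19). Leaving out 1 library ended the Sparc call 3 times of 9 and the Cd34 call 8 times. Of 21 prostaglandin and leukotriene genes 3 were called higher. Ptgs2, the inducible cyclooxygenase, read 14, 4.16, 2.07 and 1.64 CPM and then 42.6, 17.2, 77, 21.3 and 35.6 CPM, with 20 mJ/cm2 replicate 1 the high animal of its group. It rose by 2.95 ± 0.61, and the prostaglandin E synthase Ptges by 0.88 ± 0.18.

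**Figure D4:**
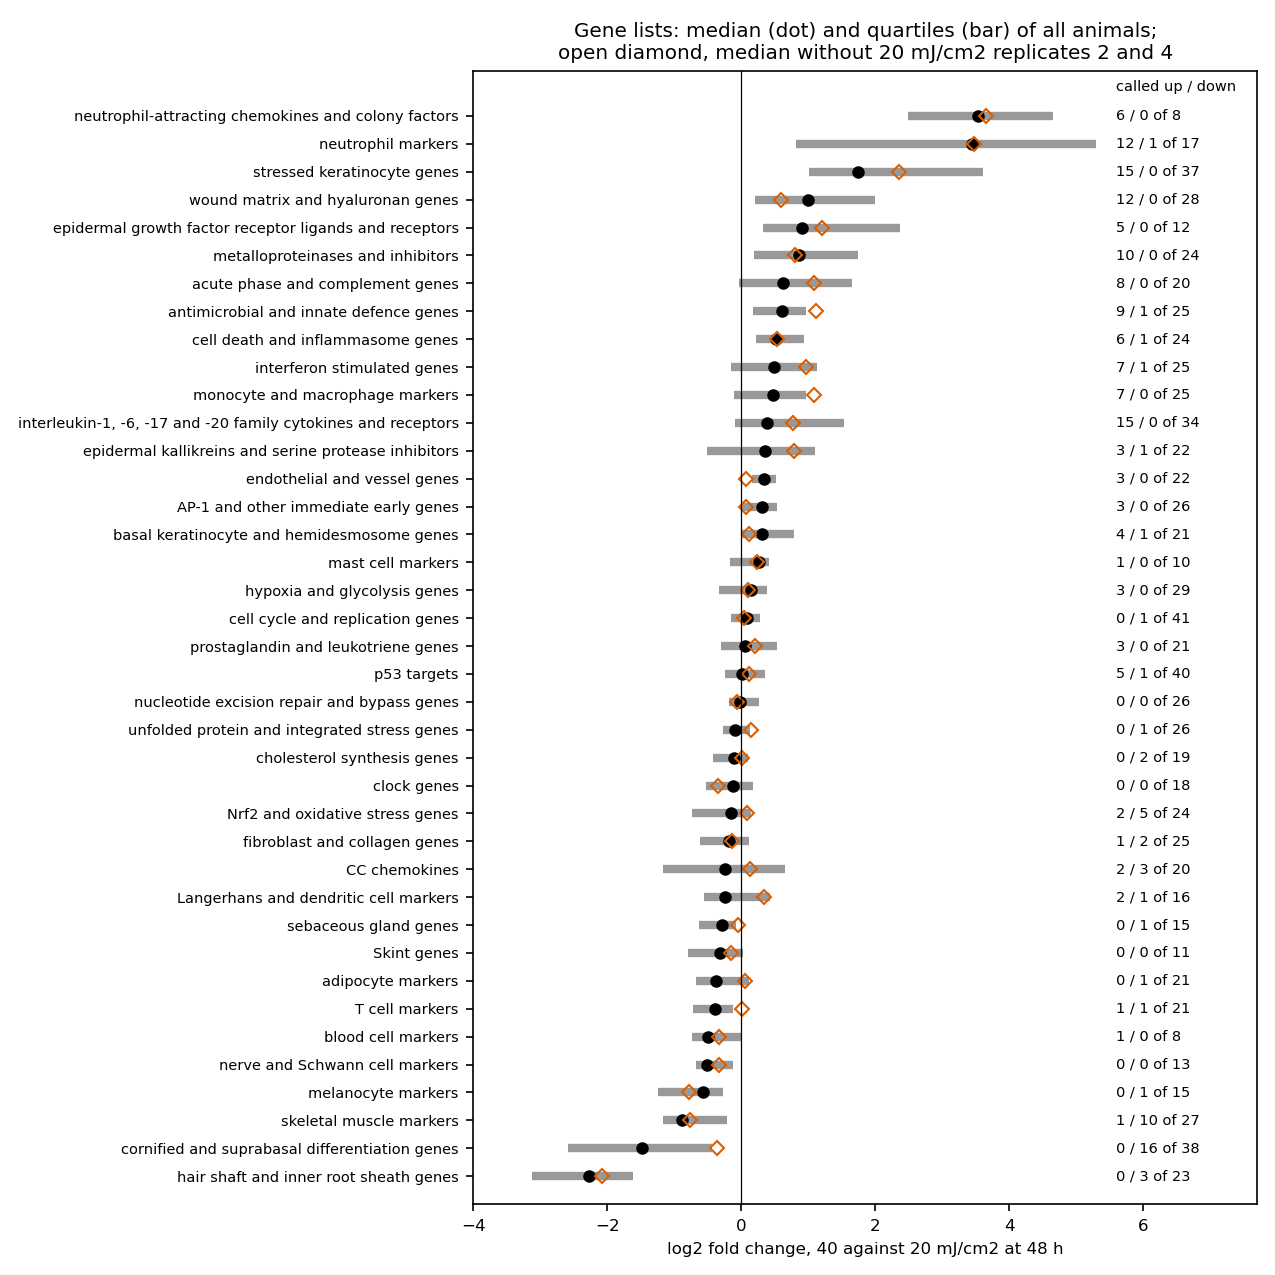
Median (dot) and quartiles (bar) of the log2 fold change of 40 against 20 mJ/cm2 at 48 h for 39 gene lists, with members called up and down at right and the median without 20 mJ/cm2 replicates 2 and 4 as an open diamond. Neutrophil chemokines (3.54) and neutrophil markers (3.45) lie furthest to the right. The cornified list moves from -1.48 to -0.36 without those replicates, which were picked for standing high in it. Medians cover members that passed the filter, and genes near 0 in most libraries could pass through the groups where they are high.

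Of 40 p53 targets, genes induced by DNA damage, 5 were called higher and 1 lower, with a median of 0.01. Of the 5 rises 0 or 1 was left when replicate 2 or 4 at 20 mJ/cm2 or replicate 3, 4 or 5 at 40 mJ/cm2 was dropped, and 3 when 40 mJ/cm2 replicate 2 was. Cdkn1a, the cell cycle inhibitor that p53 induces, read 231, 280, 189 and 257 CPM at 20 mJ/cm2 and 245, 176, 262, 240 and 219 CPM at 40 mJ/cm2, a log2 difference of -0.07 ± 0.18 (edgeR adjusted p = 0.849). Both groups lay above sham (134 ± 14.9 CPM, SD), by 0.84 and 0.77 log2. Cdkn1a is named as the standard member of its list, after its values were seen. Pmaip1, which promotes apoptosis, rose by 1.28 ± 0.36 with a call lost in 6 of the 9 fits without 1 library. Ddit4l, an inhibitor of growth signalling, read 88.8 to 158 CPM at 20 mJ/cm2 and 45.2 to 65.5 CPM at 40 mJ/cm2, and was called in all 9 (-1.07 ± 0.19). Of 41 cell cycle genes 0 were called higher and 1, the ubiquitin enzyme Ube2c, lower, and of 26 nucleotide excision repair and bypass genes 0 were called. The medians were 0.09 and -0.02, and against sham the cell cycle median was 0.91 at 20 mJ/cm2 and 1.13 at 40 mJ/cm2. The cell cycle median was 0.80 without 20 mJ/cm2 replicates 3 and 4, which stood high in hair genes, and -0.13 without replicate 2. With the hair level as a covariate 10 of the 41 were called higher and the median was 0.61.

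Other stress and structure lists held few calls. Of 26 immediate early genes 3 were called higher, among them Fosl1, a subunit of AP-1, which read 7.07, 0, 0.179 and 0.12 CPM at 20 mJ/cm2 and 5.75 to 14.2 CPM at 40 mJ/cm2. Replicate 1 at 20 mJ/cm2 lay inside the 40 mJ/cm2 range, and the call was lost in 5 of the 9 fits. The list held 1 call without 40 mJ/cm2 replicate 3, 0 without 20 mJ/cm2 replicates 2 and 4, and 0 without 20 mJ/cm2 replicates 3 and 4. Of 24 oxidative stress genes 2 were called higher and 5 lower (2 lower without 20 mJ/cm2 replicate 2 or 4 or 40 mJ/cm2 replicate 3, and 8 without 20 mJ/cm2 replicate 3). The glutathione transferase genes Gsta4 (2.06 ± 0.41) and Gsta2 (-1.78 ± 0.37) moved in opposite directions, each called in all 9 fits. Of 24 cell death genes 6 were called higher and 1 lower. Mlkl, the executor of necroptosis, read 7.96, 10.1, 9.2 and 9.37 CPM and then 16.3, 19.3, 23.3, 17.6 and 15.1 CPM, with no overlap (1.02 ± 0.20, edgeR adjusted p = 0.00346). The list's 6 rises were 2 without 20 mJ/cm2 replicate 4 or 40 mJ/cm2 replicate 3 or 5, and 3 without 40 mJ/cm2 replicate 2 or 4. Of 21 basal keratinocyte genes 4 were called higher and 1 lower, and of 22 endothelial genes 3 were called higher, led by the vessel peptide gene Apln (2.01 ± 0.40). Each of these 2 lists held 1 higher call without 20 mJ/cm2 replicate 2 or 4 or 40 mJ/cm2 replicate 3, and the endothelial list also without 40 mJ/cm2 replicate 4 or 5.

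Genes of other skin compartments also differed between these animals, and their part in the results above was not tested unless a value is given. Of 27 skeletal muscle markers 10 were called lower (2 without 20 mJ/cm2 replicate 2, 5 without replicate 4, 6, 5 and 6 without 40 mJ/cm2 replicates 2, 4 and 5) and 1 higher, with levels (mean log2 CPM of the list) of 8.81 to 9.42 at 20 mJ/cm2, 8.31 to 8.84 at 40 mJ/cm2 and 9.08 to 9.7 in sham. Pvalb, the calcium buffer of fast muscle fibres, read 1930, 6220, 1400 and 3100 CPM and then 941, 378, 962, 840 and 881 CPM (-1.93 ± 0.38). With the muscle level as a covariate edgeR called 492 genes higher and 227 lower, with 12 higher calls among the 17 neutrophil markers. Under that covariate the cornified list had 1 lower call in place of 16, the stressed keratinocyte list 9 higher in place of 15 and the hair list 16 lower in place of 3. Hair shaft and root sheath genes stood at 3.44 and 3.67 in 20 mJ/cm2 replicates 3 and 4 and at -0.79 to 1.47 in the other 7 libraries, and 3.16 in sham replicate 2. All 23 had a lower estimate at 40 mJ/cm2 and 3 were called, and without those 2 replicates the list's median was 2.06 in place of -2.28. With the hair level as a covariate 1032 genes were called higher and 1475 lower. Of 15 melanocyte markers 1, Mlana, was called lower, and of 21 adipocyte markers 1, Cidea, whose call was lost in 5 of the 9 fits. Both shares are close to the 4.25% called lower among all genes tested.

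The difference between the doses was called far more often at 48 h than at the other times. edgeR called 1 gene at 0 h, 0 at 6 h (1008 at an unadjusted p under 0.05), 31 at 24 h (0.166%), 81 at 72 h (0.434%) and 1 at 96 h, with other animals at each time. The estimates of single genes were not all largest at 48 h, though edgeR called 0 genes for a change from 48 to 72 h. Saa3 differed by 3.66 ± 0.97, 6.21 ± 0.69, 9.64 ± 1.28 and 7.76 ± 1.02 log2 at 24, 48, 72 and 96 h, and was called at the last 3 times. Krt6a differed by 1.47 ± 0.46, 3.10 ± 0.30, 4.81 ± 0.90 and 2.75 ± 0.90, called at 48 and 72 h. Tnc was called at 24, 48 and 72 h (2.50 ± 0.38, 4.92 ± 0.59 and 5.41 ± 0.97) and stood at -0.05 ± 0.52 at 96 h. Cxcr2 differed by 0.09 ± 0.72 at 24 h, 5.65 ± 0.73 at 48 h and 5.15 ± 1.07 at 72 h. Il6 differed by 3.42 ± 0.88 at 24 h, where it was not called (adjusted p = 0.0993), by 3.90 ± 0.70 at 48 h and by 3.42 ± 0.76 at 72 h.

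**Figure D5:**
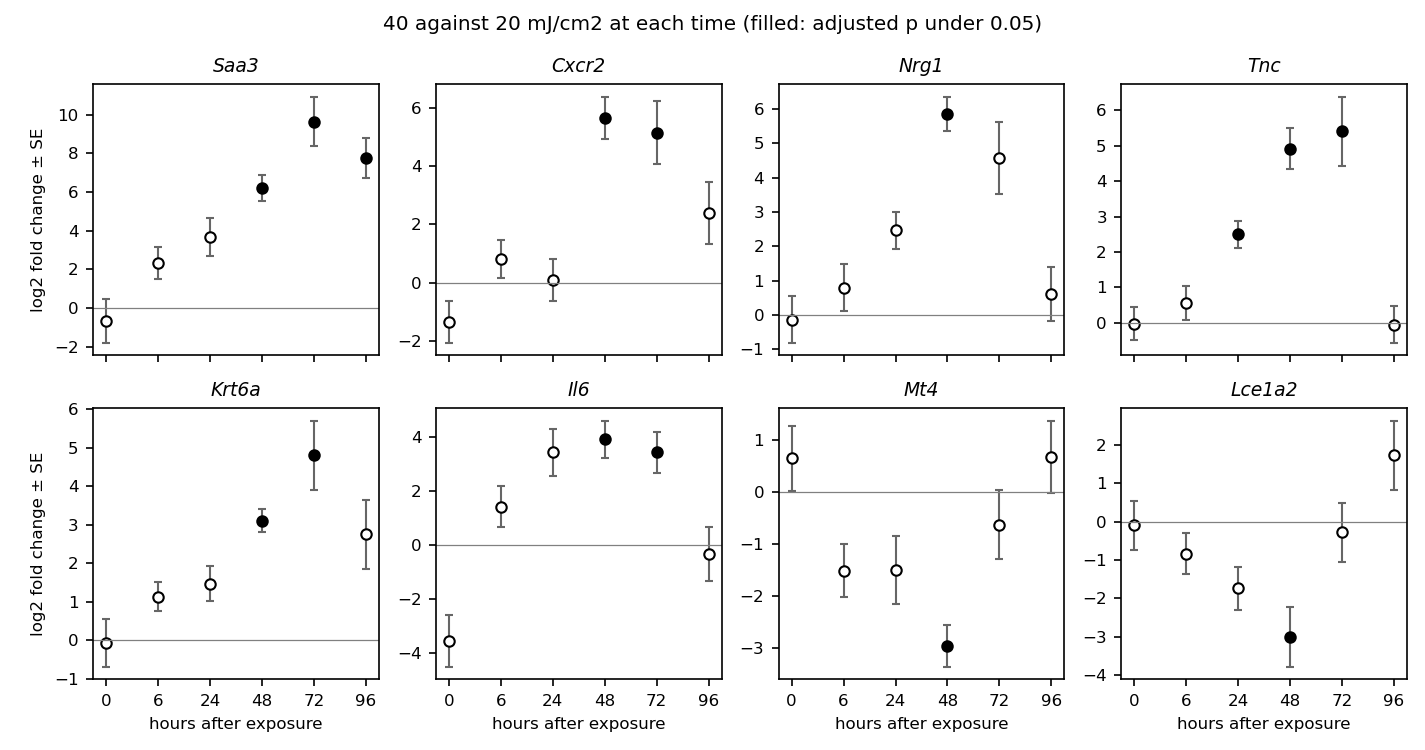
Log2 fold change of 40 against 20 mJ/cm2 with its SE at 6 times for 8 genes, filled where the edgeR adjusted p is under 0.05. The estimates of Saa3 and Krt6a are higher at 72 h than at 48 h, and that of Cxcr2 goes from 0.09 at 24 h to 5.65 at 48 h. Those of Mt4 and Lce1a2 are lowest at 48 h. edgeR called 0 genes for a change from 24 to 48 h or from 48 to 72 h.

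The change of the difference was tested directly. From 24 to 48 h edgeR called 0 genes (1760 at an unadjusted p under 0.05, 22 called by DESeq2), and from 48 to 72 h 0 genes (1931 unadjusted, 188 by DESeq2). Cxcr2 changed by 5.49 ± 1.09 log2 from 24 to 48 h with an edgeR adjusted p of 0.107, and Mt4 by 2.37 ± 0.80 from 48 to 72 h (adjusted p = 0.219). Without 20 mJ/cm2 replicate 1 at 48 h the counts were 179 and 382, without replicate 3 the later one was 192, and without 40 mJ/cm2 replicate 2 at 72 h it was 38. In simulated counts for the 48 h comparison over 18673 genes, edgeR recovered 40 of 100 genes changed 2-fold and 94 of 100 changed 4-fold. The changed genes were drawn from those with a mean of at least 20 counts. The change between times was not simulated.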

How the data were processed

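RNA of mouse dorsal skin was sequenced from a stranded mRNA library. Reads were handled with bcl2fastq 2.20.422, fastp 0.23.0, STAR 2.7.10a and DESeq2 1.36.1 on GRCm39, per the submitters' processing notes, which give no roles. Expected counts for each gene and library come in a table the authors deposited, and 12.6% of its values are not whole. No source used here says whether strand was used in counting. Counts were rounded to whole numbers, and symbols came from GENCODE vM21, which matched 52083 of 55416 gene IDs.

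A gene was tested if it passed edgeR's filter over all 145 libraries. List counts and medians cover the members that passed, and genes near 0 in most libraries could pass through the groups where they are high. The 24 libraries of 48 h entered 1 fit (edgeR 4.0.16 quasi-likelihood F test, two-sided, TMM scaling, title ending as a term, Benjamini-Hochberg adjustment, called under 0.05, R 4.3.3). SE is the log2 fold change divided by the root of F. limma 3.58.1 and DESeq2 1.42.0 were alternatives. Ratios for genes with 3 or fewer counts at 20 mJ/cm2 use summed counts, and intervals and floors cover counting error only. The test was tried on simulated data first.

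Genes are named by rule: the 15 largest rises and 15 largest falls among called genes that average a log2 CPM of 1 or more and keep 1 sign in all fits without 1 library, and in each of 39 lists up to 4 called members by smallest p. Comparison, lists and members were chosen with earlier results of these data known. The p-values of the 48 h fit rest on the spread between animals of the same group, estimated over all 24 libraries. The least different pair of libraries differed by a chi-square of 13.6 per degree of freedom, so none was counted as a repeat.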

Additional observations from a re-analysis of the deposited data

Results flagged for a closer look

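Of 182 groups of 4 or 5 animals checked over the genes with printed values, 15 held 1 animal far from the rest by Dixon's test. Of the 15, 11 were 20 mJ/cm2 groups. The test flags about 1 in 20 groups of independent, normally spread values. The groups here share animals, and many of the genes were picked for their difference, so the 15 cannot be read against that rate. At 20 mJ/cm2, replicate 2 stood high in Nrg1 (1.04 CPM against 0.12 to 0.256 in the others), Sprr2h (3.33 against 1.13 to 1.48), Slfn4 (3.95 against 2.87 to 2.96), Msr1 (12.2 against 5.14 to 6.07) and Sparc (23000 against 9760 to 10700). Replicate 4 was the 1 library with counts of Fpr1 (0.0801 CPM), Cxcl3 (0.0401 CPM) and Il24 (0.0401 CPM), a matter of 1 or 2 counts each. Replicate 1 stood high in Nlrp3 (2.09 against 0.721 to 0.948) and Fosl1 (7.07 against 0 to 0.179), and replicate 3 low in Ncf1 (7.25 against 8.74 to 9.01). At 40 mJ/cm2, replicate 3 stood high in Areg (26.1 against 7.69 to 11.2), replicate 1 low in Flt3 (6.78 against 8.68 to 9.22) and high in Sprr4 (2.91 against 0.268 to 0.371) and replicate 2 low in Pvalb (378 against 840 to 962).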

How the results depend on the processing

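Of the 1459 genes called between 40 and 20 mJ/cm2 at 48 h, all kept their sign with DESeq2, limma-voom and each fit without 1 library, but the count moved. It was 2190 with DESeq2, 1158 with limma-voom (772 higher, 386 lower, a share of higher calls of 66.7% in place of 45.6%), 485 with the 9 libraries alone, 719, 2507 and 2718 with muscle, hair or mitochondrial level as a covariate, 479 among R1 libraries and 1 among R1_001 libraries (1 against 2). Without a filter it was 2023 (662 higher, 1361 lower). Leaving out 1 library gave 419 to 2314. Alternatives chosen after seeing the data gave 231 with the cornified level as a covariate, 758 without 20 mJ/cm2 replicates 3 and 4 and 218 without replicates 2 and 4. The change from 24 to 48 h, 0 calls, was 22 with DESeq2, 1 without a filter and 0 to 179 without 1 library, and the change from 48 to 72 h, 0 calls, was 188 with DESeq2 and 0 to 382. Cdkn1a, at -0.07 and not called, turned to 0.16 and 0.22 with the muscle or cornified covariate, -0.17 to 0.02 without 1 library (0.02 and 0 without replicate 2 of 20 or 40 mJ/cm2), and 0.13 without 20 mJ/cm2 replicates 2 and 4. Sprr4, at 0.18 and not called, turned to -0.08 with the muscle covariate, -0.48 among R1 libraries and -0.45 to 0.85 without 1 library (-0.45 and -0.44 without replicate 1 of 20 or 40 mJ/cm2). The cause of these moves was not tested. Genes at 0 to 3 counts at 20 mJ/cm2 are limited by depth. No paired analysis was possible because each library title has its own number, taken as that of the animal, and replicate numbers only name libraries.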

Other observations

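Some genes outside the lists and the naming rule also differed between the doses, and are named here after their values were seen. Fgf23, a hormone best known from bone that lowers blood phosphate, had 0 counts in the 4 libraries at 20 mJ/cm2 and 8.88, 2.34, 16.8, 10.1 and 16.3 CPM at 40 mJ/cm2, at least 301-fold higher against a floor of 3 counts over the group. Sham animals read at most 0.0732 CPM. Prok2, a chemokine-like peptide of myeloid cells, had 0 counts at 20 mJ/cm2 and 115 at 40 mJ/cm2, at least 56.8-fold higher.

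Masp1, a protease of the lectin complement pathway, read 33.6, 31.8, 21.4 and 27.6 CPM at 20 mJ/cm2 and 89.1, 104, 132, 136 and 115 CPM at 40 mJ/cm2 (log2 fold change 2.01 ± 0.21, edgeR adjusted p = 4.39e-06). Gpr35, a G protein-coupled receptor, rose by 2.14 ± 0.24 (edgeR adjusted p = 1.46e-05). In both, 40 mJ/cm2 replicates 1 and 2 were the lowest of their group and still above all 20 mJ/cm2 animals.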
